A study of Mus musculus with 23 samples.

Results

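The genes described here are 40 components of the DNA replication machinery, out of 24411 genes in the deposited table. They were taken by gene symbol from a list of replication factors, with earlier results of these data known. All 40 symbols were present. They fall into 9 roles: origin licensing (Orc1, Orc6, Cdc6, Cdt1), the subunits of the replicative helicase (Mcm2 to Mcm7), helicase activation (Cdc45, Gins1 to Gins4, Mcm10), polymerases and primase (Pola1, Pola2, Prim1, Prim2, Pold1, Pold2, Pole), the sliding clamp and its loader (Pcna, Rfc1 to Rfc5), single-strand binding (Rpa1, Rpa2, Rpa3), lagging-strand maturation (Fen1, Lig1), nucleotide supply (Rrm1, Rrm2, Tyms, Dut) and chromatin behind the fork (Chaf1a, Uhrf1).

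A cell copies its genome in S phase. In G1 the origin recognition complex, Cdc6 and Cdt1 load the ring of Mcm proteins onto DNA, and in S phase Cdc45 and the GINS complex join that ring to form the moving helicase. Primase and the polymerases then copy the strands, held by the clamp Pcna that the Rfc complex loads, while ribonucleotide reductase (Rrm1 with Rrm2) and thymidylate synthase (Tyms) make the building blocks. Many of these genes are transcribed under E2F factors as a cell commits to divide, so their RNA is widely read as a sign of cycling cells. The lung before birth grows by cell division, and the adult lung holds few dividing cells.

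RNA-seq libraries, 23 in 7 groups, were made from lungs of C57BL/6 mice kept in a barrier facility without treatment. The groups were Rarres1-knockout (KO) and wild-type (WT) embryos at embryonic day 19.5 (E19.5), KO and WT males at 10 months, KO lung tumours and KO non-tumour lung from males at 18 months, and WT males at 18 months. There were 3 libraries per group except KO non-tumour lung at 18 months, which had 5. The labels give no sex for the embryos, do not describe the knockout construct, and do not say how the tumours were dissected or typed. Tumours 1, 3 and 6 carry the animal codes of KO non-tumour lungs 1, 3 and 6, while KO lungs 2 and 7 come from animals with no tumour library. The titles number lungs 6 and 7 as 4 and 5, and the animal codes are used here. Total counts per library lay between 23661181 and 46566642. Rarres1, the deleted gene, had 0 or 1 count in each KO library and 24 to 64 in each WT library. Markers of alveolar type 2 cells summed to at least 18392 CPM (counts scaled to a common library size of 1000000) in every library, and WT embryo 3 stood apart by a summed level of basal and squamous markers of 1073 CPM, against 33.2 to 74.8 CPM in the other embryos. Of the members, 9 overlap another gene (Orc1, Gins2, Mcm7, Pold1, Pold2, Rfc4, Rpa1, Fen1 and Chaf1a), and since the sources used here do not say whether counting used strand, reads of the 2 genes may be shared there. In GRCm38 the genes that recur below lie at chr4:108575705-108616030 (Orc1), chr11:98907709-98923942 (Cdc6), chr8:122568015-122573130 (Cdt1), chr2:4990724-5012791 (Mcm10), chr12:24708254-24714146 (Rrm2) and chr17:56303337-56323486 (Uhrf1). In bulk tissue, fewer dividing cells and less replication RNA per cell cannot be told apart.

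Across genes, levels are compared as the authors' FPKM, which scales for gene length. The clamp Pcna ranked first of the 40 in all 7 groups, with group means between 51.8 ± 3.16 FPKM (KO E19.5) and 61.9 ± 4.57 FPKM (KO non-tumour lung, SD). Rfc2, a subunit of the clamp loader, came second in every group. In KO embryos it stood at 25.1 ± 1.88 FPKM, and its neighbours Rpa3 at 23.4 ± 3.59 and Rpa1 at 22.8 ± 2.77 FPKM had values by library that overlapped those of Rfc2. Orc1, the largest subunit of the origin recognition complex, ranked last in all 7 groups, at 0.49 ± 0.118 FPKM in KO embryos and 0.453 ± 0.0709 FPKM in WT embryos. The 5 lowest in KO embryos were Gins3, Pole, Mcm10, Cdc6 and Orc1. The order was not fixed over age: Rrm2, the small subunit of ribonucleotide reductase whose protein is made in S phase and destroyed after it, held rank 29 in WT lungs at 10 months and rank 16 in WT embryos. The plot of 9 members by library shows genes of both kinds, abundant at every age or scarce in the adult lung.

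**Figure D1:**
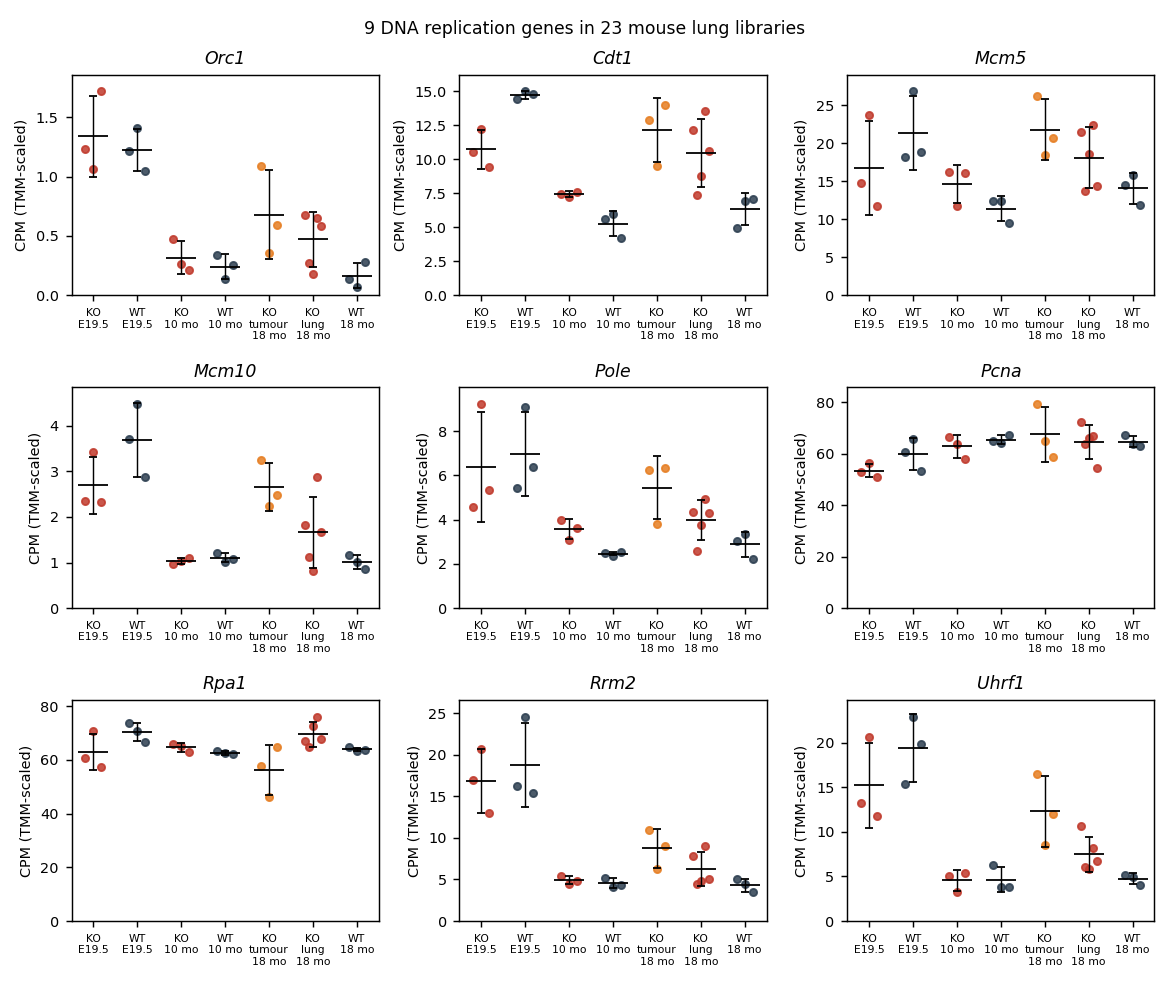
Normalised read count (CPM, TMM-scaled) of 9 DNA replication genes, 1 panel each, against the 7 groups. Points are libraries, the long bar is the group mean and the error bar its SD (n = 3, and 5 for KO lung at 18 months). Orc1, Mcm10, Rrm2 and Uhrf1 are highest in embryos, while Pcna keeps group means between 53.4 and 67.7 CPM.

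The adult lung was first set against the embryonic lung within each genotype, which asks how the replication genes differ between the growing and the grown lung. In KO, 16 of the 40 members fell and 1, Pcna, rose at 10 months compared with E19.5, with a median log2 fold change of -0.34 over the 40 against 0.0030 over all 15626 genes tested. For comparison, 29.4% of all genes tested fell and 31.1% rose. In WT, 28 members fell and 0 rose, with a median of -0.61 against -0.00027 over all 15619 genes, of which 31.2% fell and 31.6% rose. The 16 were all among the 28 of WT, which is 57.1% of the WT list. A gene was called where the edgeR quasi-likelihood test gave an adjusted p under 0.05 over all genes tested, and fold changes are log2 with their standard error (SE).

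Of the 4 origin licensing genes 2 fell in KO and 4 in WT. Orc1 had 0.472, 0.267 and 0.212 CPM in KO lungs at 10 months, against 1.24, 1.06 and 1.72 CPM in KO embryos. In WT it had 0.339, 0.136 and 0.252 CPM at 10 months, against 1.21, 1.41 and 1.05 CPM in embryos. All adult lungs lay under all embryos, by a log2 fold change of -2.05 ± 0.38 in KO (edgeR adjusted p = 0.00162) and -2.33 ± 0.38 in WT (0.00051), although the adult values rest on 4 to 15 reads per library. Cdt1, which brings the Mcm ring to the origin and is destroyed once S phase begins, had 7.46, 7.21 and 7.63 CPM in KO lungs at 10 months, against 10.5, 12.2 and 9.42 CPM in KO embryos. In WT the values were 5.59, 6.00 and 4.25 CPM at 10 months, against 14.4, 15.0 and 14.8 CPM in embryos. Its fall was -0.53 ± 0.13 in KO (edgeR adjusted p = 0.00623) and -1.49 ± 0.14 in WT (1.39e-05), where it had the smallest adjusted p of the 40. Cdc6, the loader's other partner, had 1.79, 1.95 and 2.01 CPM in KO lungs against 2.71, 3.57 and 2.04 CPM in KO embryos, and 1.49, 1.19 and 1.26 CPM in WT lungs against 2.78, 3.92 and 3.52 CPM in WT embryos. It passed the test in WT (-1.38 ± 0.23, edgeR adjusted p = 0.000591) and did not in KO (-0.54 ± 0.25, adjusted p = 0.0899). Orc6 fell in WT by 0.43 on the log2 scale and was not called in KO (-0.14).

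Among the ring subunits Mcm2 to Mcm7, 0 of 6 were called in KO, with a median of -0.22, and 5 of 6 fell in WT, with a median of -0.56. Mcm5 had 16.2, 11.8 and 16.1 CPM in KO lungs at 10 months, against 14.8, 23.8 and 11.8 CPM in KO embryos, which overlap. In WT it had 12.4, 12.4 and 9.51 CPM at 10 months, against 18.2, 26.9 and 18.9 CPM in embryos, with no overlap and a fall of -0.91 ± 0.17 (edgeR adjusted p = 0.00184). Embryo 2 was the highest of its group in both genotypes. Mcm4 was the subunit not called in WT, at -0.22 ± 0.10. Of the 6 helicase activators 3 fell in KO (Cdc45, Gins1 and Mcm10) and 4 in WT (these and Gins2). Mcm10, which helps the loaded helicase begin to unwind, had 0.975, 1.03 and 1.10 CPM in KO lungs at 10 months, against 2.34, 3.42 and 2.32 CPM in KO embryos (-1.38 ± 0.25, edgeR adjusted p = 0.00139), and fell by 1.75 on the log2 scale in WT. Gins3 and Gins4, which belong to the same GINS complex as Gins1 and Gins2, were called in neither genotype, with values of -0.27 and 0.15 in WT.

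Several polymerase, clamp and loader genes passed in neither genotype. Of 7 polymerase and primase genes, Prim2 and Pole fell in both genotypes and the other 5 were not called in either. Pole, the catalytic subunit of the leading-strand polymerase, had 4.00, 3.09 and 3.60 CPM in KO lungs at 10 months, against 4.58, 9.24 and 5.33 CPM in KO embryos, and 2.51, 2.37 and 2.52 CPM in WT lungs, against 5.41, 9.11 and 6.39 CPM in WT embryos. The groups did not overlap in either genotype, with falls of -0.84 in KO and -1.51 ± 0.21 in WT. Pcna had 66.7, 63.9 and 58.1 CPM in KO lungs at 10 months, against 52.8, 56.3 and 51.2 CPM in KO embryos, a rise of 0.23 ± 0.08 (edgeR adjusted p = 0.0306). That call was lost without KO embryo 1 (adjusted p = 0.0731), without KO embryo 3 (0.0636), without KO lung 1 (0.118) or without KO lung 2 (0.0766), and in the fit over all 7 groups (0.0767). In WT Pcna was not called (0.11 ± 0.08), with 65.0, 64.4 and 67.4 CPM at 10 months against 60.9, 65.9 and 53.5 CPM in embryos. Within the clamp loader, Rfc3, Rfc4 and Rfc5 fell in both genotypes, while Rfc1 and Rfc2 were not called in either. Rfc2 had 36.3, 32.7 and 32.3 CPM in WT lungs at 10 months against 33.5, 36.5 and 30.9 CPM in WT embryos, which overlap. For the single-strand binding genes Rpa1, Rpa2 and Rpa3, the mean of log2(CPM + 1) was read by library. In WT it was 4.28 to 4.43 at 10 months, below the 4.45 to 4.69 of embryos. In KO it was 4.38 to 4.42 at 10 months against 4.34 to 4.56 in embryos, which overlap.

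Of the 8 genes of lagging-strand maturation, nucleotide supply and chromatin, 6 fell in KO and 8 in WT. Lig1, the ligase that seals lagging-strand fragments, had 15.5, 12.5 and 14.0 CPM in KO lungs at 10 months, against 22.7, 30.0 and 26.5 CPM in KO embryos (-0.92 ± 0.13, edgeR adjusted p = 0.000352). In WT it had 12.8, 13.8 and 14.8 CPM against 23.4, 31.7 and 27.8 CPM (-1.01 ± 0.12, adjusted p = 7.14e-05). The adult values of the 2 genotypes overlap. Rrm2 had 5.38, 4.42 and 4.84 CPM in KO lungs against 16.9, 20.7 and 12.9 CPM in KO embryos, and 5.22, 4.03 and 4.36 CPM in WT lungs against 16.3, 24.6 and 15.4 CPM in WT embryos. Its fall was 3.46-fold in KO (-1.79 ± 0.18, edgeR adjusted p = 6.06e-05) and 4.17-fold in WT (-2.06 ± 0.20, adjusted p = 3.33e-05). Uhrf1, which directs maintenance methylation onto newly copied DNA, had 5.07, 3.24 and 5.37 CPM in KO lungs against 13.2, 20.7 and 11.8 CPM in KO embryos, and 6.23, 3.86 and 3.85 CPM in WT lungs against 15.3, 22.9 and 19.8 CPM in WT embryos (-1.74 ± 0.27 in KO, -2.07 ± 0.23 in WT). Rrm1, Tyms and Chaf1a, the large subunit of chromatin assembly factor 1, fell in both genotypes. Fen1, the flap nuclease of the lagging strand, fell in WT by 0.39 (adjusted p = 0.0419), with 11.9, 9.93 and 9.11 CPM against 13.1, 15.7 and 11.3 CPM, which overlap, and was not called in KO (0.09). The plot of fold changes between ages sets both genotypes side by side.

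**Figure D2:**
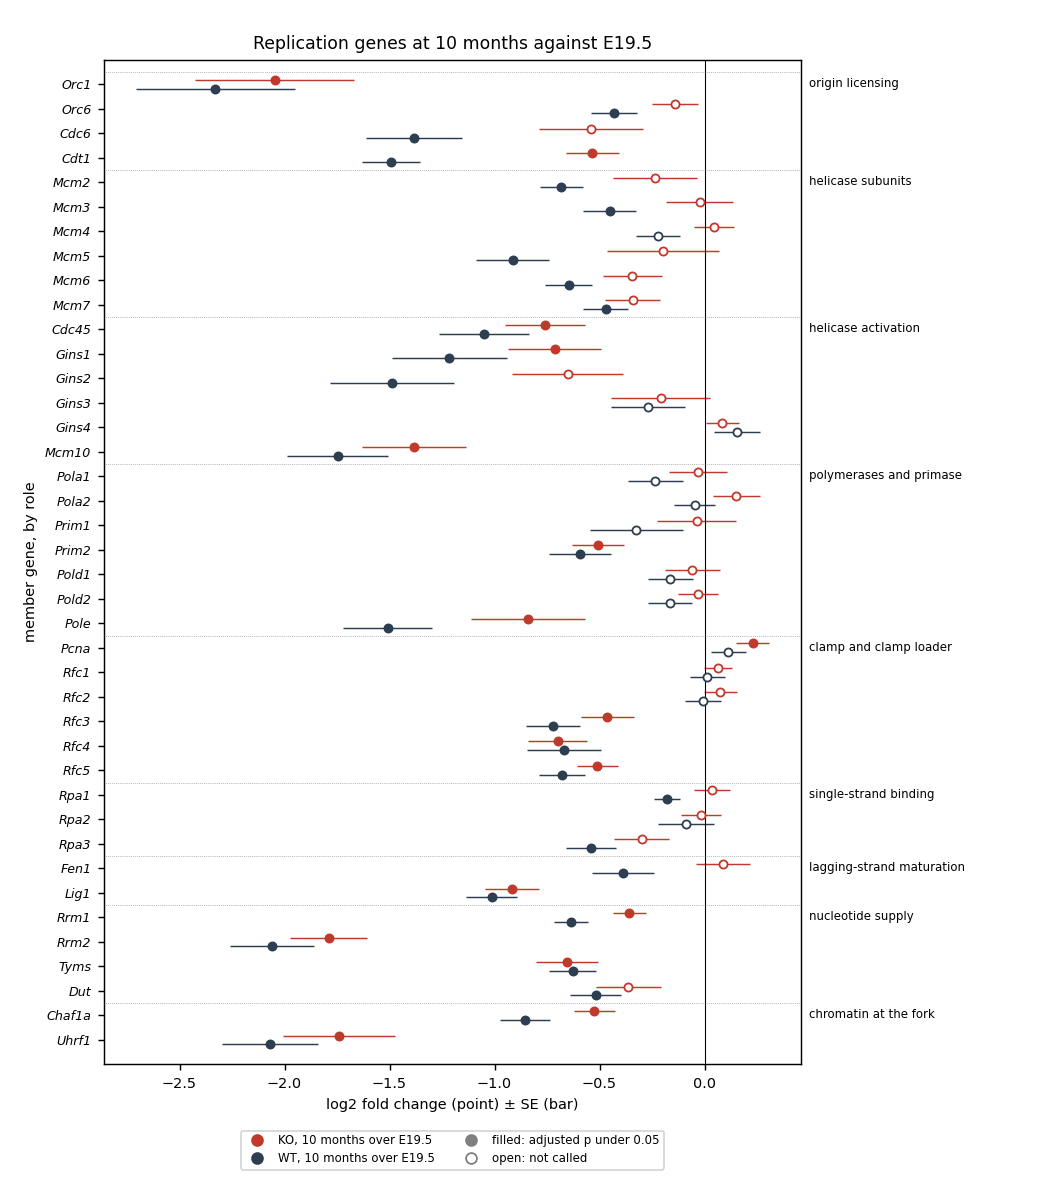
Log2 fold change of the 40 members at 10 months over E19.5, in KO (red) and WT (dark blue), ordered by role. Bars are SE, and filled points passed an edgeR adjusted p of 0.05 over all genes tested. Of the filled points to the left of 0, 16 are KO and 28 are WT, and WT lies further from 0 than KO for Cdt1, Gins2 and Pole.

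Other genes of the cell cycle also fell. All 24 of 24 mitosis genes fell in each genotype, with a median of -2.41 in KO and -2.39 in WT. Mki67, the nuclear antigen used to stain cycling cells, fell by 2.70 on the log2 scale in WT (edgeR adjusted p = 6.44e-08), and Ube2c, which helps the anaphase-promoting complex, by 3.00. Of 35 further replication factors, 13 fell and 3 rose in KO and 18 fell and 4 rose in WT. Dbf4, the activating subunit of the Cdc7 kinase, stood at -1.55 ± 0.11 in KO and -1.48 ± 0.12 in WT, and Ticrr, which helps recruit Cdc45, at -1.97 ± 0.26 in KO and -3.12 ± 0.31 in WT. Of 32 regulators of G1 and S phase, 21 fell and 5 rose in KO and 20 fell and 7 rose in WT, among them the inhibitor Cdkn1c (-2.91 ± 0.14 in KO, -2.88 ± 0.09 in WT) and cyclin A, Ccna2 (-2.63 ± 0.16 in KO, -2.63 ± 0.19 in WT). In nucleotide supply outside the members, Rrm2b, the reductase subunit that serves cells outside S phase, rose (1.24 ± 0.10 in KO, 1.12 ± 0.10 in WT) while the salvage kinase Tk1 fell (-1.12 ± 0.20 in KO, -1.94 ± 0.22 in WT).

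Cell makeup moved with age as well. Of 9 T and NK cell markers tested, 9 rose in each genotype, with a median of 4.99 in KO and 4.85 in WT, and 8 of 8 B and plasma cell markers rose in each. Endothelial markers rose in 7 of 8 in KO and 8 of 8 in WT. Erythroid markers fell in 4 of 8 in KO and 8 of 8 in WT, their summed level lying between 3162 and 9099 CPM in KO lungs at 10 months and between 9057 and 12046 CPM in KO embryos, and between 3776 and 4495 CPM in WT lungs and 8196 and 14277 CPM in WT embryos. No marker of these 4 lists was at 0 in an adult library of 10 months, and Cd3e, Cd8a, Ncr1 and Pax5 were each at 0 in 1 embryo of 1 genotype. The part of these cells in the fall of the members was not tested.

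Whether the 2 genotypes differed in this fall was tested as an interaction, the genotype effect at 10 months minus that at E19.5. Of 40 members 0 passed, while 0.0625% of 15994 genes were called higher and 0.0938% lower. The difference was above 0 for 37 of the 40 members, with a median of 0.26, against 52.1% of all genes and a median of 0.010. In the edgeR test 5 members and 1215 of all 15994 genes had an unadjusted p under 0.05. The members were Cdc6, Cdt1, Fen1, Rrm1 and Chaf1a. Cdt1 came closest, at 0.96 ± 0.19 (adjusted p = 0.0842). DESeq2, which called 39 genes higher and 68 lower, called Cdt1 alone of the members, at 0.95 (DESeq2 adjusted p = 0.00164). Over the other fits of this interaction its adjusted p in edgeR lay between 0.0672 without KO embryo 2 and 1.00 in the fit over all 7 groups. Cdc6 followed at 0.84 ± 0.33 (adjusted p = 0.576). Without WT embryo 2, the library with the highest member level of all, the median was 0.14, with 32 of 40 members above 0, and without KO embryo 3 it was 0.17. The 24 mitosis genes, of which 0 passed (0 at an unadjusted p under 0.05 in edgeR), had a median of -0.04 with 9 of 24 above 0.

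The same comparison can be read at each age. At E19.5 0 of 40 members passed between KO and WT, and 0% of the 15307 genes tested were called higher and 0% lower. In edgeR 144 genes had an unadjusted p under 0.05, 1 member (Cdt1) among them, and DESeq2 called 2 genes lower, neither of them a member. The fold change was below 0 for 35 of 40 members, with a median of -0.15 against 0.0027 over all genes. Cdt1 had 10.5, 12.2 and 9.42 CPM in KO embryos against 14.4, 15.0 and 14.8 CPM in WT embryos, with no overlap (-0.46 ± 0.12, unadjusted p = 0.00468, adjusted p = 1.00). Mcm4, second by p, had 27.6, 32.4 and 26.0 CPM in KO embryos against 32.6, 38.4 and 29.7 CPM in WT embryos, which overlap (-0.23 ± 0.12). Without WT embryo 2 the median of the 40 was -0.05 and 14 lay above 0. The median was -0.23 without KO embryo 2 and -0.09 without KO embryo 3.

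At 10 months 0 of 39 tested members passed between KO and WT, where 0.574% of 15324 genes were called higher and 0.946% lower. Orc1 did not reach the count filter. DESeq2 and limma called 0 members too. In edgeR 9 members and 2670 of all 15324 genes had an unadjusted p under 0.05. The median was 0.09 against -0.00031 over all genes, with 28 of 39 above 0, and 0.05 without WT lung 3. Cdt1 had 7.46, 7.21 and 7.63 CPM in KO lungs against 5.59, 6.00 and 4.25 CPM in WT lungs, so every KO lung was above every WT lung (0.49 ± 0.14, edgeR adjusted p = 0.132). Rfc5 had 9.41, 9.08 and 9.15 CPM in KO lungs against 7.21, 7.49 and 7.63 CPM in WT lungs, again with no overlap (0.30 ± 0.09, adjusted p = 0.149). Of 24 mitosis genes 0 were called, with 1 at an unadjusted p under 0.05 in edgeR, and 20 lay below 0, with a median of -0.20. Among the G1 and S regulators 1 of 32 was called, Cdkn1a, the p21 inhibitor of cyclin-dependent kinases, which averaged 43.8 CPM in KO and 90.7 CPM in WT (-1.06 ± 0.10, edgeR adjusted p = 0.00226). These genotype comparisons share their libraries with the age comparisons above.

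Short sequence upstream of these genes was read to set beside the falls. RefSeq promoter windows of GRCm38.p6, from 250 bases before to 50 after the annotated start, were matched by symbol for 33 of the 40 members, some of them with more than 1 start, and a gene was counted where any of its windows held the motif. An E2F-type motif, spelled TTTCCCGC, TTTGGCGC, TTTCGCGC or TTTGCCGC and searched on both strands (GCGGGAAA, GCGCCAAA, GCGCGAAA, GCGGCAAA), was held by 13 of 33 members (39.4%), against 2.6% of the 27025 genes of the promoter table and 3.21% of the 17224 of them that the count table holds. Matches of the motif on opposite strands can overlap. For Mcm5, Mcm6 and Mcm7 the window that holds the motif did not match the opening of a GENCODE transcript of the gene, so its start is less sure. Among members that fell in WT with age it was held by 10 of 24 (41.7%), and among the other members by 3 of 9 (33.3%). The CCAAT box, on either strand, was held by 69.7% of these members and 41.1% of all genes of the promoter table. A match describes these letters only, and its absence says nothing of a factor's binding. Orc1, Cdt1 and Rrm2 are shown because they had large falls in WT, Mcm3 and Mcm6 as ring subunits with several motifs, and Rfc3 as the loader subunit that stands out below in tumours. Capitals mark the E2F-type motif, each window reads 5′ to 3′ on the strand of its gene, and Rrm2 holds none: Orc1 at chr4:108579204-108579503 (plus), Cdt1 at chr8:122567765-122568064 (plus), Mcm3 at chr1:20820263-20820562 (minus), Mcm6 at chr1:128359656-128359955 (minus), Rfc3 at chr5:151651159-151651458 (minus) and Rrm2 at chr12:24708004-24708303 (plus).
Orc1: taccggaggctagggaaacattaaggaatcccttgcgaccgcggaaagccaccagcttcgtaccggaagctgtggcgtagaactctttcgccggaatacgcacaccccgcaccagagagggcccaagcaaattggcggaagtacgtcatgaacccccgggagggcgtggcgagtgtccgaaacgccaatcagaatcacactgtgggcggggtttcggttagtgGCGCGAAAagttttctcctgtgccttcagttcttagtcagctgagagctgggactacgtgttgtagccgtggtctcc
Cdt1: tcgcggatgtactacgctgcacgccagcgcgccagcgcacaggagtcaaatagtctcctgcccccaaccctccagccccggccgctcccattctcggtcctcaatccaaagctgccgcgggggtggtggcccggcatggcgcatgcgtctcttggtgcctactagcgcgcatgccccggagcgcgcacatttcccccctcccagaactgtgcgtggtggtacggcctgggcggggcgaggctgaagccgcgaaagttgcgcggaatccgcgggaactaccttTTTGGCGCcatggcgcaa
Mcm3: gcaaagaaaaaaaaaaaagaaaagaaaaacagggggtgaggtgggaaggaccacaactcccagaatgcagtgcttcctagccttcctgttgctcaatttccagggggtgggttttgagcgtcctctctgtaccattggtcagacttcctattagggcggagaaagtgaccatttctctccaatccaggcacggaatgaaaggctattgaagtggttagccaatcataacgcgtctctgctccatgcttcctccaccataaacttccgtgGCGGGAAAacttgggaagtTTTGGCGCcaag
Mcm6: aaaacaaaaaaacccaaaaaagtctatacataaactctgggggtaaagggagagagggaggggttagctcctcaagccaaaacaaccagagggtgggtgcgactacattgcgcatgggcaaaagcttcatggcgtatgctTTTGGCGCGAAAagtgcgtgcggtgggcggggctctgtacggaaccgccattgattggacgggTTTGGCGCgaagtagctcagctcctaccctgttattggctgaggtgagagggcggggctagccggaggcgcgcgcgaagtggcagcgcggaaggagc
Rfc3: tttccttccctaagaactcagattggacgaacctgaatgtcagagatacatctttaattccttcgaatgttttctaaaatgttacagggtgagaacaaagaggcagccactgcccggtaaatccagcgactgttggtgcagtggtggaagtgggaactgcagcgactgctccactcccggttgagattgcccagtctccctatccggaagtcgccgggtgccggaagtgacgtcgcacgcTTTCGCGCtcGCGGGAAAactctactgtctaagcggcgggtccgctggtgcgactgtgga
Rrm2: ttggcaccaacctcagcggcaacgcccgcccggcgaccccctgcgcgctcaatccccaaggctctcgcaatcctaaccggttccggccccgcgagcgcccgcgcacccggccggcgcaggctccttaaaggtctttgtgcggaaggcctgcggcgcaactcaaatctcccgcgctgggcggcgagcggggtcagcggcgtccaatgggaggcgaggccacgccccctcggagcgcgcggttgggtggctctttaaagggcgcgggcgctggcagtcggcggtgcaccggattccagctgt

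Mcm6 held 3 matches, of which the first and second overlap by 4 letters, Mcm3 and Rfc3 held 2 each, and Orc1 and Cdt1 held 1 each. Among these 6, Rrm2, with no match, fell in WT by 2.06 on the log2 scale, and Mcm6, with 3, by 0.65. Rrm2 was shown for its large fall and Mcm6 for its motifs, so this pair cannot bear on a link between them. Such a link was not tested.

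From 10 to 18 months no member passed in either genotype. In KO non-tumour lung at 18 months against KO lung at 10 months 0 of 40 members passed, and 0% of 15455 genes were called higher and 0% lower. In edgeR 782 genes, 2 of them members, had an unadjusted p under 0.05, and DESeq2 called 9 genes higher and 2 lower, no member among them. The members' median was 0.16, with 34 of 40 above 0, and 0.10 without KO lung 6. Uhrf1 had 10.6, 6.00, 5.80, 8.15 and 6.74 CPM in KO lungs 1, 2, 3, 6 and 7 at 18 months, against 5.07, 3.24 and 5.37 CPM in KO lungs at 10 months, with no overlap (0.71 ± 0.25, edgeR adjusted p = 0.893). Cdt1 had 12.1, 7.37, 8.77, 13.6 and 10.6 CPM against 7.46, 7.21 and 7.63 CPM, which overlap through lung 2 (0.50 ± 0.20, adjusted p = 0.893). In WT, 0 of 39 tested members passed, and 0% of 15321 genes were called higher and 0% lower, with 833 genes and 0 members at an unadjusted p under 0.05 in edgeR and 13 genes higher and 8 lower in DESeq2, no member among them. The WT median was 0.04 (0.07 without WT lung 1 of either age, 0.06 without WT lung 3 of 18 months and 0.02 without WT lung 3 of 10 months). Mcm5, first by p, had 14.6, 15.8 and 11.9 CPM in WT lungs at 18 months against 12.4, 12.4 and 9.51 CPM at 10 months, which overlap (0.30 ± 0.14, adjusted p = 0.891), and Rfc2 had 33.1, 41.3 and 38.1 CPM against 36.3, 32.7 and 32.3 CPM (0.15 ± 0.09).

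KO non-tumour lung was next set against WT lung at 18 months. Of 40 members 0 passed, and 0 were called by DESeq2 or limma, while 0.0453% of 15463 genes were called higher and 0.0323% lower. In edgeR 7 members and 1243 of all 15463 genes had an unadjusted p under 0.05. The median was 0.17 against -0.0020 over all genes, and 34 of 40 lay above 0. Without KO lung 6 the median was 0.09. Origin licensing genes had the highest median of the roles, 0.79. Cdt1 had 12.1, 7.37, 8.77, 13.6 and 10.6 CPM in KO lungs 1, 2, 3, 6 and 7, against 4.97, 6.96 and 7.09 CPM in WT lungs, with no overlap (0.72 ± 0.22, edgeR adjusted p = 0.396). Cdc6 had 3.40, 1.99, 1.79, 3.56 and 2.17 CPM in KO lungs against 1.36, 1.42 and 1.45 CPM in WT lungs, again with no overlap (0.85 ± 0.29, adjusted p = 0.44). Lungs 1 and 6 were the highest for Cdt1 and for Cdc6. Orc1, with 2 to 8 reads in the WT libraries, stood at 1.44 ± 0.61 (adjusted p = 0.588). The interaction of the genotype effect at 18 months minus that at 10 months gave 0 of 40 members and 0% of 15653 genes higher and 0% lower, with 453 genes and 0 members at an unadjusted p under 0.05 in edgeR, and 1 gene lower, no member, in DESeq2. Mcm4 (0.29 ± 0.14) and Uhrf1 (0.69 ± 0.36) came first there by p, both at an adjusted p of 1.00.

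The member level, the mean of log2(CPM + 1) over the 40 genes, varied among the KO lungs at 18 months. It was 3.80, 3.50, 3.58, 3.87 and 3.49 in KO lungs 1, 2, 3, 6 and 7, against 3.45, 3.51 and 3.44 in WT lungs. Lungs 2 and 7 lay within the WT range, and lungs 1, 3 and 6 lay above it, lung 3 by the least. In the same order the mitosis level was 2.82, 2.13, 2.31, 2.75 and 2.23 in KO lungs, against 2.20, 2.10 and 1.84 in WT lungs. There lung 7 lay above the WT range too, with lungs 1, 3 and 6. Fits of part of these lungs were chosen after the data were seen, so their medians restate these levels and test no link with tumours. With only lungs 1, 3 and 6, from animals that also gave a tumour library, the members' median against WT was 0.26 with 38 of 40 above 0. With only lungs 2 and 7 it was 0.02 with 21 of 40 above 0, and 0 members passed in either fit. Lungs 1 and 6 were also the highest of the KO lungs for T and NK cell markers (summed level 143.8 and 115.1 CPM, against 50.1 to 94.4 CPM in the other KO lungs and 46.3 to 76.1 CPM in WT lungs). The summed level of B and plasma cell markers was 495.8 and 997.0 CPM in lungs 1 and 6, 204.0 to 696.4 CPM in the other KO lungs and 216.4 to 372.0 CPM in WT lungs. Of 9 and 8 markers tested in these lists 0 were called between KO and WT, and no marker of either list was at 0 in an 18-month library. Their part in the member level was not tested.

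**Figure D3:**
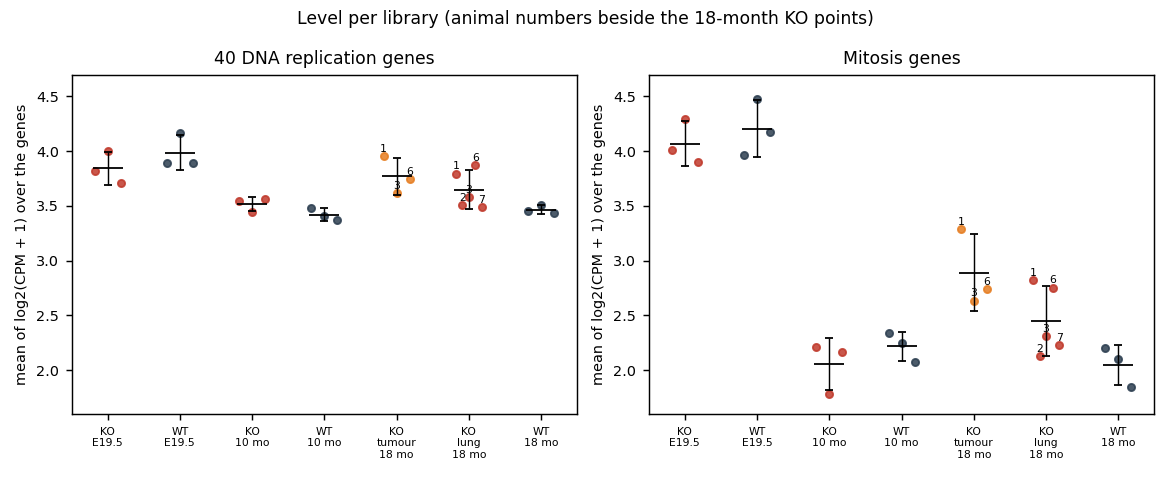
Level of the 40 DNA replication genes (left) and of 24 mitosis genes (right), as the mean of log2(CPM + 1), against the 7 groups. Points are libraries, long bars are group means with the SD as error bar, and numbers are the animal codes of the 18-month KO libraries. KO lungs 1 and 6 lie at 3.80 and 3.87 on the left, above tumours 3 and 6 at 3.62 and 3.74 and below tumour 1 at 3.95. On the right the order is alike. Tumour 1 exceeds these lungs, at 3.29 against 2.82 and 2.75, and the other tumours lie below them, at 2.64 and 2.74.

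Tumours were then set against KO non-tumour lung, which asks whether tumour tissue carries more replication RNA than KO lung without tumour. The KO lungs are also those set against WT above. Of 40 members 0 passed, while 7.2% of 15459 genes were called higher and 6.6% lower. In edgeR 5 members and 4533 of all 15459 genes had an unadjusted p under 0.05. DESeq2 called 3 members higher (Rfc3, Tyms and Uhrf1), the fit over all 7 groups called 4 higher and 1 lower, and the count without tumour 6 was 2 higher and 1 lower. Over all genes these fits called 1675 higher and 1725 lower, 2533 and 2625, and 1832 and 2234, in that order. The median was 0.18 against -0.0069 over all genes, and 26 of 40 lay above 0. With the animal as a block, which pairs tumours 1, 3 and 6 with lungs 1, 3 and 6, 0 members passed and the median was 0.02 with 21 above 0. The unpaired fit of these 3 animals alone was chosen after the data were seen. It gave a median of 0.0040 with 20 above 0 and 0 members called, against 0.18 with lungs 2 and 7 included. From that 0.18 the median moved to 0.08 without tumour 1, 0.09 without lung 7 and 0.11 without lung 2. Beside the lung of the same animal, 29 of 40 members were higher in tumour 1, 20 in tumour 3 and 15 in tumour 6. All 3 tumours were higher than their own lung for 8 members (Cdt1, Mcm2, Pole, Rfc3, Rfc5, Rrm2, Tyms and Uhrf1) and lower for 7 (Gins3, Pola2, Pold1, Rpa1, Rpa2, Rpa3 and Chaf1a). Such counts by animal were not taken over all genes, so they do not set the members apart from other genes.

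The 3 members with the smallest p are given first. Rfc3, of the clamp loader, had 11.3, 11.0 and 8.44 CPM in tumours 1, 3 and 6, against 7.90, 7.37, 6.83, 7.78 and 5.65 CPM in KO lungs 1, 2, 3, 6 and 7, so the groups did not overlap (0.52 ± 0.17, edgeR adjusted p = 0.0718). Tyms had 11.0, 10.8 and 7.97 CPM in tumours against 8.40, 6.43, 6.83, 7.04 and 5.46 CPM in KO lungs, overlapping through tumour 6 and lung 1 (0.53 ± 0.18, adjusted p = 0.0842). Both were higher in embryos of either genotype than in WT lungs at 10 months. Uhrf1 had 16.4, 8.48 and 12.0 CPM in tumours against 10.6, 6.00, 5.80, 8.15 and 6.74 CPM in KO lungs, overlapping through tumour 3 and lung 1 (0.71 ± 0.26, adjusted p = 0.102). Mcm10 and Orc1 had the widest differences of their roles. Mcm10 had 3.24, 2.25 and 2.47 CPM in tumours against 1.82, 1.13, 0.816, 2.87 and 1.67 CPM in KO lungs (0.68 ± 0.39, adjusted p = 0.285). Orc1 had 1.09, 0.355 and 0.589 CPM in tumours against 0.679, 0.273, 0.176, 0.655 and 0.581 CPM in KO lungs (0.54 ± 0.53, adjusted p = 0.548). In both genes tumour 1 was the highest tumour, and lung 6 or lung 1 the highest lung.

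For the members that stand for the other roles the differences were 0.45 or less in size. Pole had 6.24, 3.79 and 6.32 CPM in tumours against 4.33, 2.57, 3.75, 4.95 and 4.30 CPM in KO lungs (0.45 ± 0.26). Mcm5 had 26.2, 18.5 and 20.7 CPM in tumours against 21.5, 13.7, 18.6, 22.4 and 14.3 CPM in KO lungs (0.26 ± 0.20), and Fen1 had 20.2, 14.9 and 14.9 CPM in tumours against 15.6, 11.3, 13.0, 19.9 and 12.0 CPM in KO lungs (0.21 ± 0.21). All of these overlap, and for Fen1 lung 6 lay above tumours 3 and 6. Rpa1, the large subunit of the complex that coats single-stranded DNA in replication and repair, went the other way, with 57.6, 46.3 and 64.9 CPM in tumours against 67.0, 64.6, 72.4, 76.1 and 67.6 CPM in KO lungs (-0.31 ± 0.12, edgeR adjusted p = 0.119). Tumour 6 alone overlapped the lungs, and without it Rpa1 passed (-0.43 ± 0.12, adjusted p = 0.03). Pcna stood at 0.06 ± 0.12.

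Against WT lung at 18 months, 6 of 39 tested members rose in the tumours and 0 fell, where 7.87% of 15346 genes rose and 7.5% fell. The median was 0.30 against 0.016 over all genes, with 29 of 39 above 0. Mcm10 had 3.24, 2.25 and 2.47 CPM in tumours against 1.15, 1.02 and 0.85 CPM in WT lungs (1.38 ± 0.26, edgeR adjusted p = 0.0197). Uhrf1 had 16.4, 8.48 and 12.0 CPM in tumours against 5.21, 4.92 and 4.04 CPM in WT lungs (1.37 ± 0.26, adjusted p = 0.0216), and Cdc6 had 4.71, 2.80 and 2.94 CPM in tumours against 1.36, 1.42 and 1.45 CPM in WT lungs (1.29 ± 0.27, adjusted p = 0.0258). In all 3 every tumour was above every WT lung. Rrm2 (1.01 ± 0.25), Cdt1 (0.93 ± 0.22) and Mcm2 (0.60 ± 0.13) also rose, and all 6 are among the 28 members that fell with age in WT. The count depended on the libraries: 0 members passed without any 1 of the 3 WT lungs, 3 without tumour 1, 8 without tumour 3 and 12 without tumour 6. DESeq2 called 13 and the fit over all 7 groups 15. Calls over all genes moved as well, from 1207 higher and 1151 lower with all libraries. They were 178 and 326, 8 and 3, and 3 and 0 without WT lungs 1, 2 and 3. Without tumours 1, 3 and 6 they were 1082 and 921, 925 and 755, and 2680 and 3042. DESeq2 gave 2057 and 2042, and the fit over all 7 groups 2774 and 2643. The 6 member calls share the WT libraries with the comparison of KO non-tumour lung and WT. There Mcm10 stood at 0.70, Uhrf1 at 0.65, Cdc6 at 0.85, Rrm2 at 0.52, Cdt1 at 0.72 and Mcm2 at 0.33, none of them called.

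**Figure D4:**
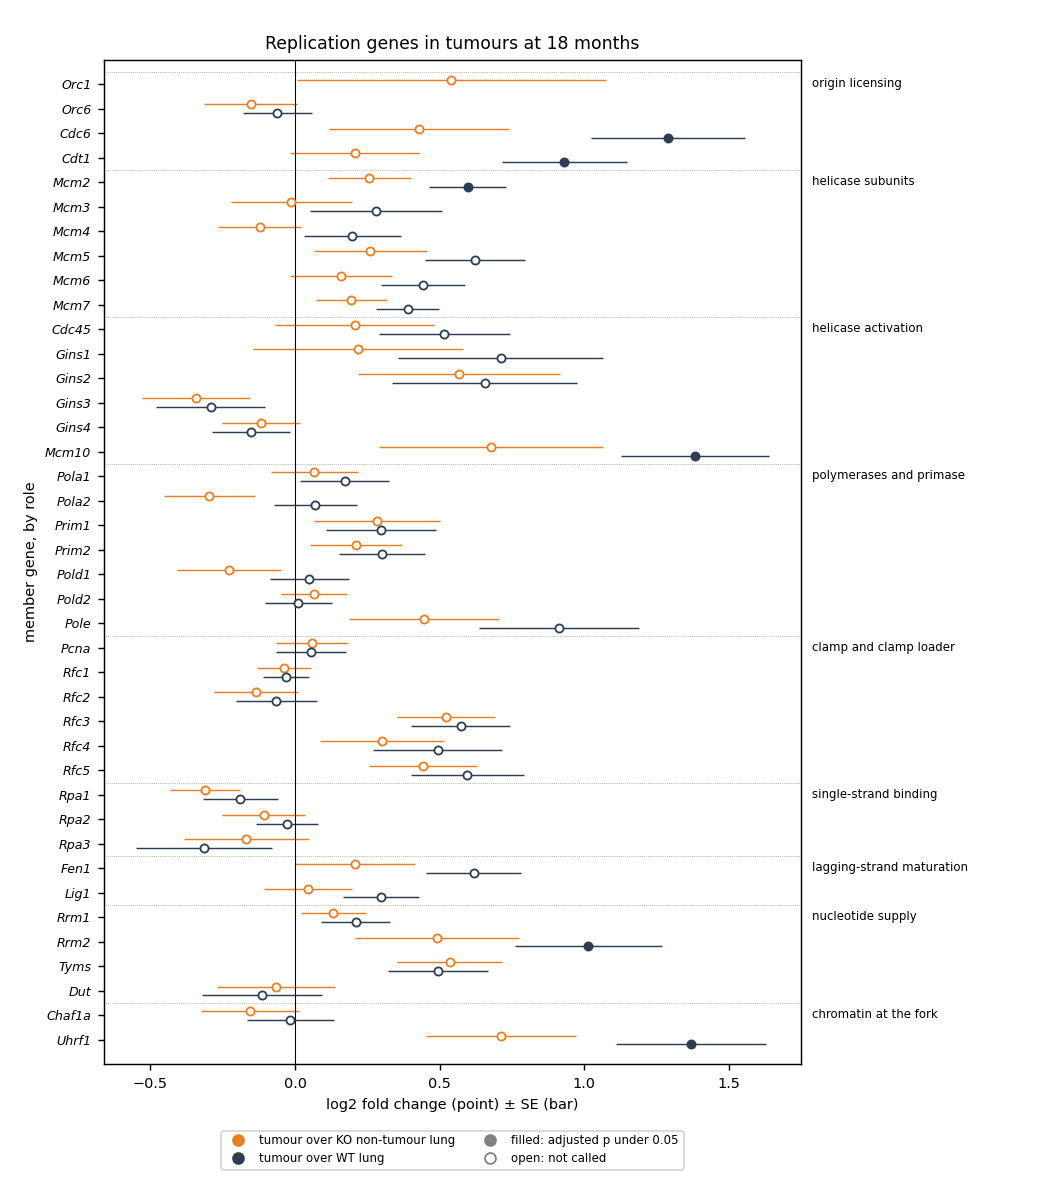
Log2 fold change of the members in tumours at 18 months, over KO non-tumour lung (orange) and over WT lung (dark blue), ordered by role. Bars are SE and filled points passed an edgeR adjusted p of 0.05 over all genes tested, and Orc1 over WT lung did not reach the count filter. The 6 filled points are all over WT lung, and Rpa1, Rpa2, Rpa3, Gins3 and Gins4 are among those below 0 in both comparisons.

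Cell cycle genes outside the members were read in the same tumours. Of 24 mitosis genes 1 rose against KO lung, Kif23, a kinesin of cytokinesis, which averaged 16.0 CPM in tumours and 5.49 CPM in KO lungs (1.54 ± 0.21, edgeR adjusted p = 0.00317). Against WT 8 of 24 rose, with a median of 1.17, among them Kif23 (1.87 ± 0.27), Plk1 (1.61 ± 0.25) and the survivin gene Birc5 (1.56 ± 0.26). Of 32 G1 and S regulators 5 rose and 1 fell against KO lung. Cyclin D1, Ccnd1, which drives G1 progression, averaged 648 CPM in tumours and 281 CPM in KO lungs (1.21 ± 0.17, adjusted p = 0.00323), and the inhibitors Cdkn2a (2.31 ± 0.45) and Cdkn1a (1.10 ± 0.24) rose while Cdkn1c fell (-0.90 ± 0.14). Of the 35 further replication factors 0 passed against KO lung, with 1 at an unadjusted p under 0.05 in edgeR, and 4 rose against WT: Chaf1b (1.10 ± 0.20), Rnaseh2b (0.65 ± 0.15), Asf1b (0.88 ± 0.21) and Dbf4 (0.88 ± 0.21). Tk1 rose against WT as well (1.45 ± 0.37).

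The cell makeup of the tumours differed from both lungs. Type 2 cell markers rose in 7 of 8 against KO lung (median 1.46) and in 7 of 8 against WT (median 1.51), their sum being 47322 to 105058 CPM in tumours, against 18392 to 30075 CPM in KO lungs and 23352 to 24872 CPM in WT lungs. Endothelial markers fell in 3 of 8 against KO lung, with levels of 7.34, 7.46 and 8.92 in tumours 1, 3 and 6 against 8.76 to 9.28 in KO lungs. Tumour 6 was the closest to lung in both lists. Alveolar macrophage markers summed to 13100, 2322 and 2309 CPM in tumours 1, 3 and 6. The sums were 884 to 2092 CPM in KO lungs and 979 to 1060 CPM in WT lungs, with no overlap. As mean levels, tumours at 5.98 to 7.07 overlapped KO lungs at 5.35 to 6.31, and lay above WT lungs at 5.45 to 5.63. Of these markers 2 of 9 rose against each (Chil3 and Mrc1 against KO lung, Mrc1 and Cd68 against WT). Of 6 erythroid markers tested 1 fell against KO lung and 2 against WT, their summed level being 885 to 2898 CPM in tumours, 2183 to 4860 CPM in KO lungs and 3291 to 8569 CPM in WT lungs. Of these 4 lists, the erythroid one had markers at 0: Hba-a1 in 1 tumour and 1 KO lung, and Tspo2 in 2 tumours and 1 KO lung. Tumour 1 had the highest B and plasma cell marker level of the tumours, 5.61 against 3.42 and 4.23. The part of these cells in the members' differences was not tested.

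Tumours were last set against KO embryos, as growing tissue of the same genotype. Of 40 members 3 fell and 0 rose, where 18% of 15543 genes fell and 20.2% rose, and the median was -0.02 against 0.015 over all genes. The sign of that median turned with the libraries: it was 0.02 without KO embryo 2 and 0.04 without tumour 3, and -0.06 without KO embryo 1, -0.11 without KO embryo 3 and -0.13 without tumour 1. Rrm2 had 11.0, 6.27 and 9.07 CPM in tumours against 16.9, 20.7 and 12.9 CPM in KO embryos (-0.94 ± 0.26, edgeR adjusted p = 0.029). Chaf1a had 10.5, 8.05 and 9.35 CPM in tumours against 14.5, 14.8 and 13.9 CPM in KO embryos (-0.63 ± 0.15, adjusted p = 0.0174), and Lig1 had 20.0, 15.1 and 16.3 CPM in tumours against 22.7, 30.0 and 26.5 CPM in KO embryos (-0.62 ± 0.17, adjusted p = 0.0241). Every tumour was below every KO embryo in these 3 genes. The count was 0 without KO embryo 2, 1 without KO embryo 1 and 1 without tumour 3. Over all genes these fits called 2032 higher and 1797 lower, 2057 and 1872, and 2886 and 2323, in that order, against 3140 and 2798 with all libraries. Mitosis genes fell in 22 of 24, with a median of -1.35, Cenpf (-1.58 ± 0.23) and Aurka (-1.52 ± 0.24) among them. On the scale of levels, tumours averaged 3.77 for the members, against 3.84 in KO embryos, and 2.89 for mitosis, against 4.07 in KO embryos. These embryos are also the libraries against which KO lungs at 10 months were set, where Rrm2 fell by 1.79, Chaf1a by 0.53 and Lig1 by 0.92 on the log2 scale.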

How the data were processed

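RNA of 23 mouse lung libraries was quantified by the authors with Trimmomatic 0.36, STAR 2.5.2b and RSEM 1.3.0 on mm10, per the submitters' processing notes. The deposited tables hold RSEM expected counts and FPKM per gene, and the strand setting is not given in the sources used here. The labels name animal codes for the libraries of 18 months only, so p-values elsewhere measure the spread between libraries, which may be technical. No 2 replicates agreed within sampling noise: chi-square per degree of freedom was 7.04 to 242.2 over 28 pairs, on genes with at least 50 counts.

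Expected counts were rounded to whole numbers and tested with edgeR 4.0.16 (R 4.3.3): TMM scaling, filterByExpr, robust quasi-likelihood fit of the groups compared, and p-values adjusted by Benjamini-Hochberg across every gene tested, at a threshold of 0.05. This was done for 10 comparisons of groups and 2 interactions. SE is the size of the log2 fold change divided by the root of F, and CPM are TMM-scaled over the 23 libraries. Alternatives were DESeq2 1.42.0, RLE scaling, no count filter, a fit over all 7 groups, limma 3.58.1 on log2(FPKM + 0.1) and log2(FPKM + 1), each library left out, and a replicate block. The scripts were tested on simulated data. Same-coded tumour and KO lung of animals 1, 3 and 6 come from 1 animal by their codes and are paired on that ground. The correlation of deviations was 0.404, 0.0911 and 0.0905, and the lung of the same animal was the best match for tumour 1 but not for tumours 3 and 6. The members and lists were chosen with earlier results of these data known. Values by library are given for up to 3 called members of smallest adjusted p per direction and comparison (with none called, the 2 of smallest p) and, in each role, for the member with the widest difference between tumours and KO lung. Up to 4 genes of smallest adjusted p per comparison are named from other lists. Promoter windows are from RefSeq and were checked against GENCODE transcripts, and genome sequence outside them and proteins were not used here.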

Additional observations from a re-analysis of the deposited data

Results flagged for a closer look

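Among the 40 members in the 5 KO non-tumour lungs of 18 months, 1 had a library far from the rest by Dixon's test. Pola2, the accessory subunit of the polymerase that makes the first stretch of DNA on each primer, had 24.0 CPM in KO lung 6, against 17.1 to 18.6 CPM in KO lungs 1, 2, 3 and 7 and 13.9 to 15.4 CPM in WT lungs. Chance flags about 1 in 20 such groups. KO lung 6 also had the highest member level of its group, 3.87.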

How the results depend on the processing

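Leaving out 1 library gave 25 to 29 called members for the age comparison in WT and 14 to 21 in KO, 0 to 3 for tumours against KO lung, 0 to 12 against WT lung and 0 to 4 against KO embryos. It gave 0 to 0 for each of the other comparisons and interactions. Calls over all genes moved too. For tumours against WT lung they ran from 3 higher and 0 lower without WT lung 3 to 2680 and 3042 without tumour 6. DESeq2 called 3 members for tumours against KO lung, 13 against WT lung and 1 for the interaction of genotype with age at 10 months. For that interaction its calls over all genes were 39 higher and 68 lower. The fit over all 7 groups called 5, 15 and 7 members for tumours against KO lung, WT lung and KO embryos. Against KO embryos that fit called 4592 of 16257 genes higher and 4242 lower. Limma called 5 members against KO embryos at either pseudocount. Over all 16391 genes it called 2709 higher and 3713 lower there at 0.1, and 2554 and 3655 at 1. There the members' median was -0.13 and -0.12 with pseudocounts of 0.1 and 1, while the median of all genes was -0.11 and -0.08, and for tumours against KO lung it was 0.09 and 0.07, with -0.09 and -0.07 over all genes. With the replicate number as a block, tumours against WT lung kept only the libraries numbered 1 and 3. That fit gave 0 members, with 688 genes higher and 1041 lower. The age comparison with this block gave 14 members in KO and 27 in WT. Over all genes its calls were 4561 higher and 4186 lower in KO, and 4478 and 4419 in WT. Numbers pair samples only for tumours and KO lungs of the same animals, where the block left 0 members called and all-gene calls were 84 higher and 51 lower, against 1113 and 1021 without it. Only members picked by the naming rule above, mostly for the smallest p, were followed here, so a reversal was unlikely from the start. Of their values, 482 kept direction and call under an alternative, 30 lost the call and 11 gained it, and none reversed. The cause of these changes was not tested. With 3 to 5 libraries per group, members under about 1 CPM rest on few reads, Orc1 most of all.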
